A study of Mus musculus with 24 samples.

Results

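The 7 genes described here encode the IGF2BP RNA-binding proteins (Igf2bp1, Igf2bp2 and Igf2bp3), the LIN28 RNA-binding proteins (Lin28a and Lin28b) and the HMGA chromatin proteins (Hmga1 and Hmga2). They were taken by symbol from an expression table of 21833 mouse protein-coding genes, and each symbol matched 1 row. RNA of frozen tissue had been sequenced in 24 libraries, which fell into 4 groups. AG came from mice without Cre and were adrenal glands (n = 3). AGM were tumor-free adrenal glands of MYCN +/-, CRE + mice (n = 5). TI were neuroblastoma tumors of IGF2BP1 transgenic, CRE + mice (n = 8), of which the labels gave 1 as IGF2BP1 +/- and 7 as IGF2BP1 +/+. TIM were neuroblastoma tumors of mice that carried both transgenes and Cre (n = 8, labelled IMP1/MYCN, CRE +, IMP1 being another name of IGF2BP1). The transgenes sat in the Rosa26 locus behind a loxP-flanked stop cassette and were switched on by an iCre driven by Dbh, a gene of noradrenergic cells. The animals' ages were not given in the labels. The authors report that MYCN +/- mice were culled at a later age than IGF2BP1 +/+ tumor mice. They report a shorter median survival for mice with both transgenes than for IGF2BP1 +/+ mice. Age therefore differed along with genotype between AGM, TI and TIM, and its part was not tested. The labels did not tie libraries to animals, so p-values measure the spread between these samples.

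In embryonic tissues, LIN28 proteins block the maturation of let-7 microRNAs, and let-7 in turn represses mRNAs of the IGF2BP, LIN28 and HMGA2 type through sites in their 3' UTRs. IGF2BP proteins bind mRNAs and protect many of them from decay and from microRNAs. HMGA proteins bind AT-rich DNA and change how chromatin is packed. Most of these genes are active in the embryo, low in adult organs and active again in many tumors, which is why they are called oncofetal. LIN28B is a known oncogene of human neuroblastoma.

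The shared feature that the choice of genes did not measure is the let-7 site. RefSeq lists 11 mature mouse microRNAs of the let-7 and miR-98 family, and 10 of them carry the seed GAGGUAG at bases 2 to 8, so that CTACCTC in an mRNA pairs with it. This motif was searched on the mRNA strand of the longest annotated 3' UTR of each gene (GENCODE, GRCm39, the same build as mm39). All 7 members held at least 1 match, against 11.94% of 20835 3' UTRs. Igf2bp1, Lin28b and Hmga2 held 4 matches each, Lin28a held 2, and Igf2bp2, Igf2bp3 and Hmga1 held 1. Long 3' UTRs hold more matches by their length, and among 3' UTRs within 25% of their lengths at least 4 matches were found in 0.154% for Igf2bp1 (6337 bases), 0.107% for Lin28b (4515 bases) and 0.120% for Hmga2 (3021 bases). For the members with 1 match, 12.03% (Igf2bp2), 13.8% (Igf2bp3) and 8.35% (Hmga1) of 3' UTRs of like length held as many. The members are textbook let-7 targets, so the count describes them and does not test them. Mature microRNAs were not analysed here. The sites of Lin28b and Hmga2 are shown because these members, each with 4 matches, stood far apart in the TIM libraries, and the single sites of Igf2bp2 and Hmga1 because these members also moved in opposite directions. Capitals mark the seed in the microRNA and the matching bases in the 3' UTRs, each 5' to 3' on the strand of the gene.
mmu-let-7a-5p: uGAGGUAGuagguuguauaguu
Lin28b, chr10:45257117-45257139, minus strand: cccgggcgggaagtCTACCTCat
Lin28b, chr10:45254743-45254765, minus strand: atacttgttagtaaCTACCTCtg
Lin28b, chr10:45254571-45254593, minus strand: tttacagcacatggCTACCTCcc
Lin28b, chr10:45253155-45253177, minus strand: aatgatggcaccgaCTACCTCtt
Hmga2, chr10:120200128-120200150, minus strand: ccgacattcaatttCTACCTCag
Hmga2, chr10:120198891-120198913, minus strand: cccactcctcaataCTACCTCtg
Hmga2, chr10:120198453-120198475, minus strand: tgatttgcaaggaaCTACCTCca
Hmga2, chr10:120197595-120197617, minus strand: atcaaaacacactaCTACCTCtt
Igf2bp2, chr16:21878222-21878244, minus strand: cacacaaataaaagCTACCTCag
Hmga1, chr17:27782252-27782274, plus strand: cctctgttcacaaaCTACCTCtg

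**Figure D1:**
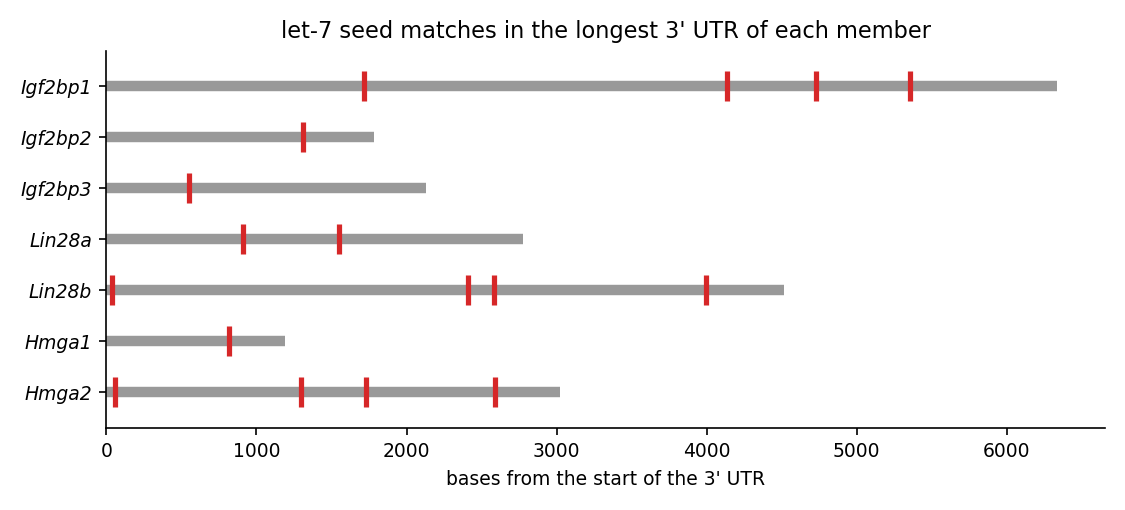
Position of the let-7 seed matches (red marks) along the longest annotated 3' UTR of each of the 7 members (grey bars), in bases from the start of the 3' UTR. Igf2bp1, Lin28b and Hmga2 hold 4 matches each, and the first match of Lin28b and of Hmga2 lies at bases 36 and 58.

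The deposited values were FPKM, and FPKM times gene length came out as whole reads in 100% of entries (within 0.05 read). These reads had passed the authors' batch correction, so they are called corrected reads here and need not be the reads that were sequenced. FPKM times length in kilobases is called scaled RPM. A single read was worth 0.00749 to 0.0134 scaled RPM, because the deposited library sizes were 3.54 to 6.47 times the reads outside 126 genes with extreme values (above 1000 FPKM in a library). Such extreme values occurred in every AGM library (22 to 53 genes) and every TIM library (10 to 28 genes) and in no AG or TI library. With these genes included, corrected reads summed to 116740738 to 1170004708 per library in AGM and 58530450 to 888626365 in TIM. They summed to 17434796 to 17893013 in AG and 12468968 to 21353172 in TI. Outside these genes the libraries held 12334076 to 23683176 reads. Scaling to those reads moved the median log2 difference of all genes from -0.0023 to -0.27 for AGM vs AG, from 0.033 to 0.22 for TIM vs AGM and from 0.0088 to 0.29 for TI vs AGM, and by less than 0.1 in the other comparisons. AG and 6 of 8 TI libraries were labelled run 1. All AGM, 3 TIM and 1 TI were run 2, and 5 TIM and 1 TI were run 3. For AGM vs AG and for TIM vs AG, run and group cannot be told apart. For TI vs AGM only 1 TI library shared the run of AGM. For TIM vs TI the 6 TI libraries of run 1 shared no run with TIM.

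Genes of the labelled tissues were present in every group, while genes of the adrenal cortex were near 0 in the tumors. The summed level of 8 sympathoblast and chromaffin genes was 88.4 to 127 FPKM in AG and 897 to 1694 in AGM, beside 210 to 3849 in TIM and 211 to 1587 in TI. The summed level of 7 adrenal cortex genes was 645 to 667 FPKM in AG and 3628 to 4846 in AGM, against at most 10.1 FPKM in a TI library and 9.28 in a TIM library. In bulk tissue, fewer cells of a type and less RNA per cell cannot be told apart.

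Hmga1 alone passed a filter of 1 FPKM in at least 3 libraries. It was tested with limma among 10171 genes. The other 6 members stayed below that filter, and all of them passed 10 corrected reads in at least 3 libraries. For them, the difference in mean log2(scaled RPM + 0.1) was tested by an exact two-sided permutation of the libraries, with p adjusted over the 6 comparisons of the gene and not over genes. Applied to all 6050 genes with such reads below the filter, the same rule called 40.1% for TI vs AG, 34.3% for TIM vs AG, 22.1% for AGM vs AG, 18.4% for TIM vs TI, 42.0% for TIM vs AGM and 52.3% for TI vs AGM. Against these shares, 2 of 6 low members were called for TI vs AG, 3 for TIM vs AG, 2 for AGM vs AG, 2 for TIM vs TI, 3 for TIM vs AGM and 3 for TI vs AGM. With 6 members, 1 call is a large share, and nothing about the family as a whole is read from these counts.

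**Figure D2:**
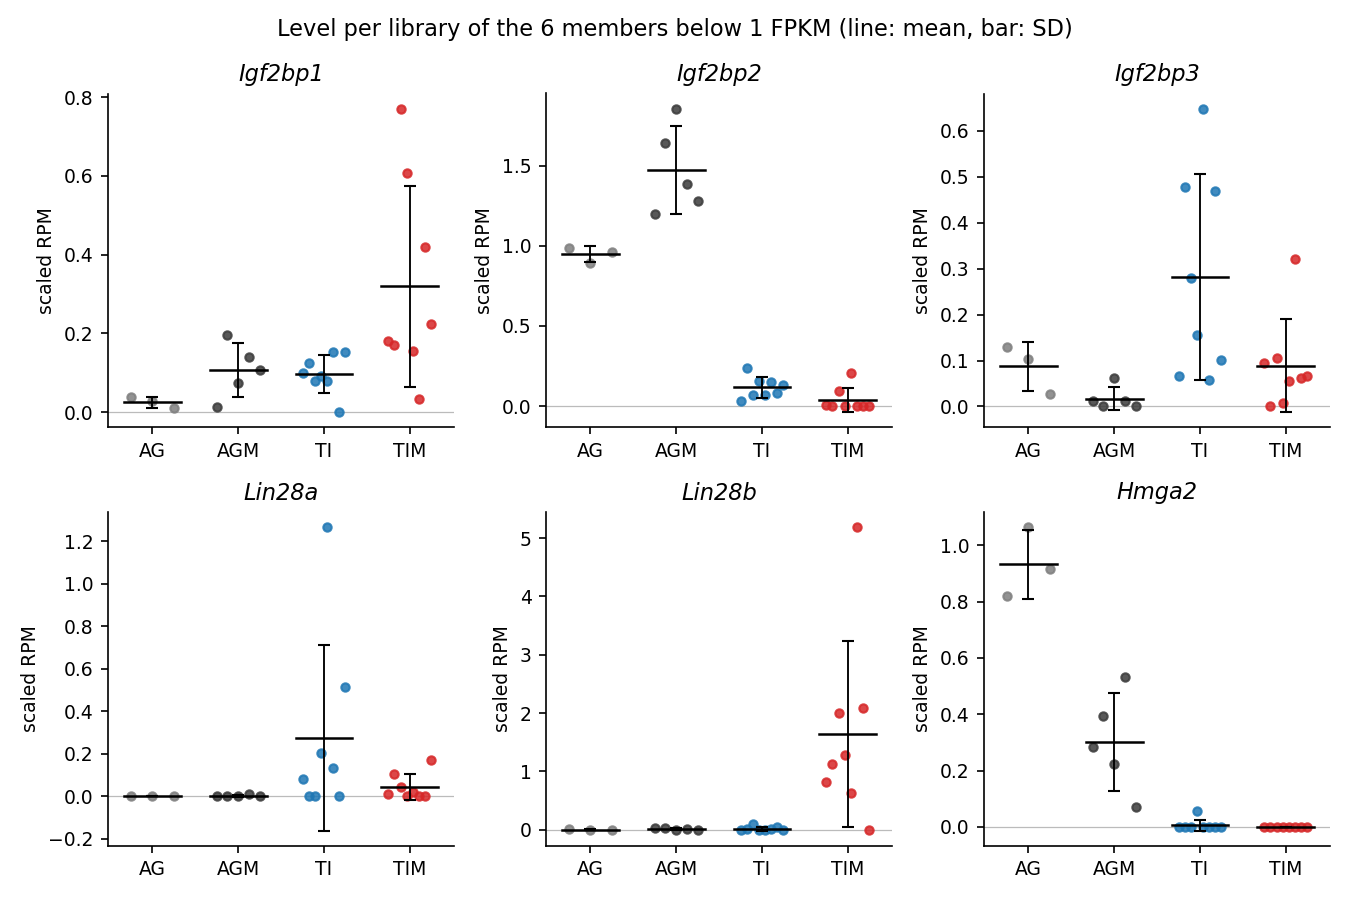
Scaled RPM (FPKM times length in kilobases) of the 6 members below the filter in each of 24 libraries, with the group mean (line) and SD (bar). Igf2bp2 and Hmga2 were highest in the adrenal glands, and Lin28b was at 0.626 scaled RPM or more in 7 of 8 TIM libraries and at most 0.0899 elsewhere.

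Igf2bp1 is the mouse gene of the protein that the transgene encodes (ENSMUSG00000013415, mm39 chromosome 11, 95847989 to 95896911, minus strand). The table had no row for the transgene, which lacks the 3' UTR of the gene, so the values below are those of the Igf2bp1 row alone. Igf2bp1 had 4, 3 and 1 corrected reads in the 3 AG libraries and 1, 18, 6, 12 and 9 in the 5 AGM libraries. In TI it had 0 to 16 (median 11), and in TIM 3 to 81 (median 19.5). All groups overlapped, and 7 of 8 TIM libraries lay above every TI library. Mean levels were 0.0251 ± 0.0142 scaled RPM in AG (SD, n = 3), 0.106 ± 0.0688 in AGM (n = 5), 0.0971 ± 0.0490 in TI (n = 8) and 0.320 ± 0.255 in TIM (n = 8). The mean in TIM was 3.30 times that in TI and 12.8 times that in AG. Neither difference passed the exact permutation test (adjusted p = 0.0727 for both, log2 differences 0.91 and 1.52). With limma across the 16221 genes with enough reads, TIM vs AG passed with a pseudocount of 0.5 (adjusted p = 0.0105) and of 0.01 (adjusted p = 0.00695). TIM vs TI passed with 0.5 (limma, adjusted p = 0.0359) and not with 0.01 (adjusted p = 0.0931). Without TIM replicate 6, the lowest TIM library with 3 reads, TIM vs TI passed the exact permutation test (adjusted p = 0.000932). So did TIM vs AG and TIM vs AGM (adjusted p = 0.0429 for both). Leaving out the lowest TIM library raises these differences by itself. With any other single library left out, none of them passed (exact permutation test, adjusted p up to 0.119, 0.178 and 0.233). TI vs AG gave a log2 difference of 0.61 (exact permutation test, adjusted p = 0.0727), and 7 of 8 TI libraries were above every AG library. At no more than 16 reads a library in TI and 81 in TIM, the Igf2bp1 row was low in both kinds of IGF2BP1 transgenic tumor. The authors measured the transgene as human IGF2BP1 mRNA, while the reads here were aligned to the mouse genome (mm39). Whether reads of the transgene were counted in this row could not be told from the values. The row is therefore no measure of transgene expression.

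Igf2bp2 (ENSMUSG00000033581, chromosome 16, 21877759 to 21982499) was the IGF2BP gene of the adrenal glands, and it was lower in both kinds of tumor. The protein is the family member that stays active in adult tissues, where it is known for binding mRNAs of metabolic genes. Igf2bp2 had 106, 94 and 102 corrected reads in AG and 97, 151, 149, 120 and 107 in AGM. It had 4 to 23 in TI (median 11) and 0 to 19 in TIM (median 0), and 5 of 8 TIM libraries held no read. No tumor library reached the level of any adrenal gland. The mean of 0.947 ± 0.0489 scaled RPM in AG (SD, n = 3) was 8.14 times the 0.116 ± 0.0661 in TI and 24.2 times the 0.0391 ± 0.0760 in TIM (n = 8 each). Without TIM replicate 5, which held 19 of the TIM reads, the ratio to TIM was 63.5. The log2 differences were -2.33 for TI vs AG and -3.05 for TIM vs AG (exact permutation test, adjusted p = 0.00909 for both). The unadjusted p of 0.00606 is the smallest that 3 libraries against 8 allow. Against AGM, with 1.47 ± 0.273 scaled RPM (n = 5), the log2 differences were -2.90 for TI and -3.62 for TIM (exact permutation test, adjusted p = 0.00233 for both). As no library overlapped, the lower level in TI also held among run 1 libraries, and that in TIM against AGM among run 2 libraries. Among the 6050 low genes, 5.17% fell as far or farther for TI vs AG and 2.51% for TIM vs AG. The adrenal cortex genes given above were also higher in every gland than in every tumor, and their part in the result was not tested.

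Igf2bp2 also differed within the adrenal glands and within the tumors, by smaller steps. It was higher in AGM than in AG by 0.57 on the log2 scale, with no overlap (exact permutation test, adjusted p = 0.0357). On the scale of reads outside the extreme genes the same difference was 0.14 (exact permutation test, adjusted p = 0.571) and the groups overlapped, at 5.43 to 6.12 RPM in AG and 4.52 to 8.96 RPM in AGM. The call was also lost without AG replicate 2 or 3 or AGM replicate 4 or 5, with adjusted p up to 0.0952 in the exact permutation test. TIM was below TI by a log2 difference of -0.72 (exact permutation test, adjusted p = 0.0272), with 6 of 8 TIM libraries below every TI library. With limma across 16221 genes and a pseudocount of 0.5, TIM vs TI did not pass (adjusted p = 0.135).

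Igf2bp3 (ENSMUSG00000029814, chromosome 6, 49062144 to 49192447), the third paralog and a known marker of aggressive tumors, leaned towards TI. It had 14, 11 and 3 corrected reads in AG and 1, 0, 5, 1 and 0 in AGM. It had 6 to 83 in TI (median 22.5) and 0 to 29 in TIM (median 6.5). In TI, 5 of 8 libraries were above every AG library and 7 of 8 above every AGM library. The mean of 0.282 ± 0.225 scaled RPM in TI (SD, n = 8) was 3.21 times that in AG, 3.16 times that in TIM and 16.4 times that in AGM. Of the 7 AGM reads, 5 were in replicate 3, and without it the ratio to AGM was 47.2. Without TIM replicate 6 the ratio to TIM was 5.05. TI vs AGM passed, with a log2 difference of 1.496 (exact permutation test, adjusted p = 0.0373). It did not pass with a pseudocount of 0.5 (exact permutation test, adjusted p = 0.0699) or without the log scale (adjusted p = 0.0805), nor without any of AGM replicates 1, 2, 4 and 5 or TI replicates 2, 3 and 7 (adjusted p up to 0.0682). TIM vs TI had a log2 difference of -0.92 and TI vs AG of 0.84, and neither passed (exact permutation test, adjusted p = 0.0714 and 0.204). Without TIM replicate 6, the highest TIM library, TIM vs TI did pass (-1.11, exact permutation test, adjusted p = 0.0350). With any other single library left out it did not (adjusted p up to 0.131). TIM lay at 0.0891 ± 0.101 scaled RPM and AG at 0.0877 ± 0.0531, with a difference of -0.08 (exact permutation test, adjusted p = 0.855). The 3 paralogs therefore had different leading groups, TIM by mean for Igf2bp1, the adrenal glands for Igf2bp2 and TI by mean for Igf2bp3. For Igf2bp1 and Igf2bp3, the lead over the other kind of tumor did not pass the test.

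Lin28b (ENSMUSG00000063804, chromosome 10, 45252646 to 45362557) showed the largest rise from TI to TIM of the 7 members. The protein blocks let-7 maturation. Lin28b had 1, 0 and 0 corrected reads in AG and 3, 2, 0, 1 and 0 in AGM, and 0 to 9 in TI (median 0.5). The 8 TIM libraries had 87, 106, 190, 172, 57, 467, 239 and 0. In 7 of 8 TIM libraries the level was above that of every other library, and in TIM replicate 8 no read was listed. The mean was 1.64 ± 1.59 scaled RPM in TIM and 0.0204 ± 0.0334 in TI (SD, n = 8 each), a ratio of 80.5, or 157 without TI replicate 3, which held 9 of the 15 TI reads. The log2 difference was 3.28 for TIM vs TI (exact permutation test, adjusted p = 0.00839), 3.33 for TIM vs AGM (adjusted p = 0.0210) and 3.464 for TIM vs AG (adjusted p = 0.0485). Against AGM the ratio was 117, or 197 without AGM replicate 1. Against AG, where the 3 libraries held 1 read in all, the ratio from summed reads was 517 with a 95% interval of 92.7 to 20442 that covers counting error only. Among the 6050 low genes, 0.364% rose as far or farther for TIM vs TI, 1.14% for TIM vs AGM and 1.69% for TIM vs AG. TIM vs AG did not pass without any one AG library or any one TIM library but replicate 8, with adjusted p up to 0.133 in the exact permutation test. It passed neither with a rank-sum statistic (exact permutation test, adjusted p = 0.0970) nor with a pseudocount of 0.5 (adjusted p = 0.0606), nor without the log scale (adjusted p = 0.279). TIM vs AGM did not pass with the rank sum or without the log scale (exact permutation test, adjusted p = 0.0559 and 0.0793). For TI vs AGM the log2 difference was 0.05 (exact permutation test, adjusted p = 0.828). TI vs AG did not pass either, at 0.18 (exact permutation test, adjusted p = 0.473).

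Lin28a (ENSMUSG00000050966, chromosome 4, 133730641 to 133746173), the paralog of Lin28b, had the opposite lean. It had 0 corrected reads in each AG library and 0, 0, 0, 1 and 0 in AGM. In TI the 8 libraries had 10, 0, 0, 22, 162, 14, 0 and 51, and in TIM they had 1, 10, 4, 0, 2, 0, 0 and 15. At least 10 reads were found in 5 TI libraries, against 2 TIM libraries. The mean was 0.275 ± 0.436 scaled RPM in TI and 0.0436 ± 0.0620 in TIM (SD, n = 8 each), and the TI mean rested largely on replicate 5 with 1.27 scaled RPM and was 0.133 without it. The log2 difference of -0.83 for TIM vs TI did not pass (exact permutation test, adjusted p = 0.269), nor did 1.26 for TI vs AG (adjusted p = 0.269). Against AG, where all libraries were at 0, the TI mean was at least 9.73-fold higher, with a floor of 3 reads per library. The 15 reads of TIM replicate 8 were the most of any TIM library, and this library was the TIM library without Lin28b. On the FPKM scale, which allows for gene length, mean levels were 0.181 ± 0.175 FPKM of Lin28b and 0.0109 ± 0.0155 FPKM of Lin28a in TIM (SD, n = 8). In TI they were 0.00225 ± 0.00368 and 0.0688 ± 0.109 FPKM.

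**Figure D3:**
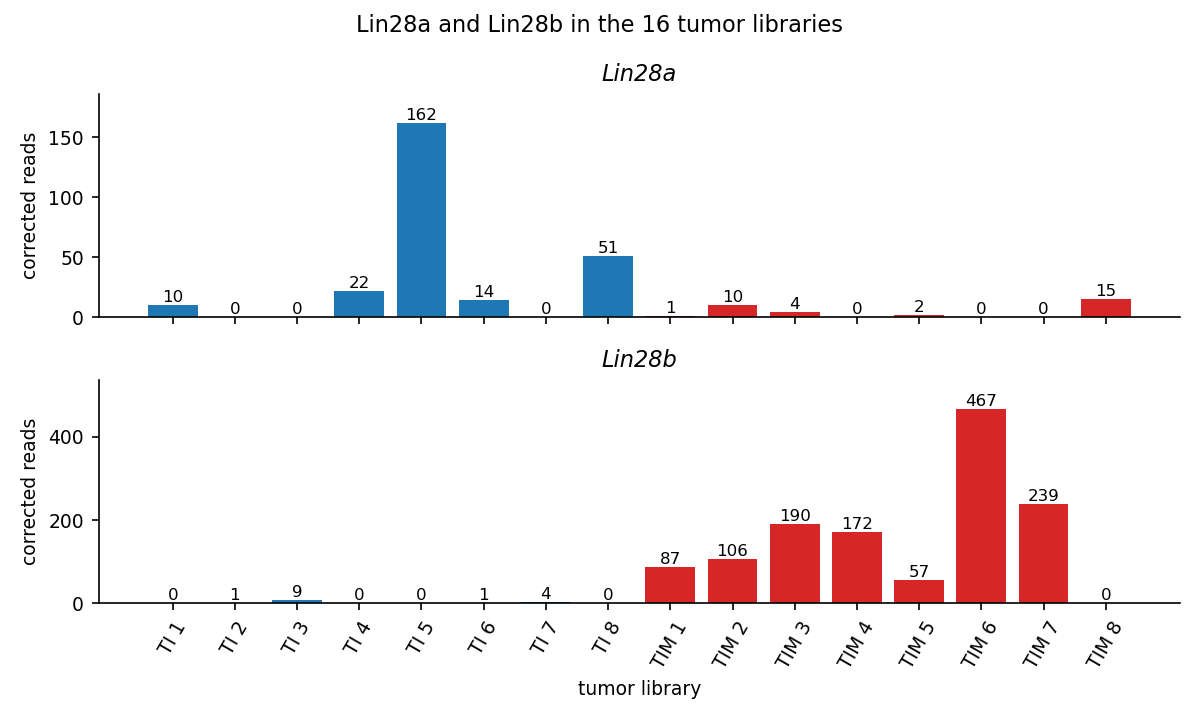
Corrected reads of Lin28a (upper panel) and Lin28b (lower panel) in the 16 tumor libraries, TI in blue and TIM in red, with the count above each bar. Lin28b reached 57 to 467 reads in 7 of 8 TIM libraries and 9 at most in TI, while Lin28a reached 162 reads in 1 TI library.

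The TIM libraries also held the extreme values named above, and these are given beside Lin28b. Cpa1, a gene of the exocrine pancreas, was at 7441 to 105724 FPKM in TIM replicates 1 to 4 and at 0 in TIM replicates 5 to 8, while the other 3 pancreas markers reached at most 13.4 FPKM (Prss2), 10.2 (Pnlip) and 4.04 (Cela1) in TIM. Summed, the 4 markers were at 0.419 to 105751 FPKM in TIM and at most 3.35 in TI, and in AGM Cela1 alone was at 12.1 to 24.5. Lin28b had 87 to 190 reads in the former and 0 to 467 in the latter. With only the 4 TIM libraries without Cpa1, a choice made after the values were seen, the log2 difference for TIM vs TI was 3.03 and did not pass (exact permutation test, adjusted p = 0.109), nor did TIM vs AG (adjusted p = 0.286) or TIM vs AGM (adjusted p = 0.143). TIM replicate 8, without Lin28b, was among the 4. With these 4, TIM vs TI was 0.53 for Igf2bp1 and -0.65 for Igf2bp2, and neither passed (exact permutation test, adjusted p = 0.258 and 0.105). Trim71, an RNA-binding ubiquitin ligase and let-7 target of the same axis, was named after its values were seen. It was at 22530, 2033 and 35643 FPKM in TIM replicates 3, 4 and 6, at most 0.0011 FPKM in the other TIM libraries and 0 to 0.0293 FPKM in TI. In corrected reads, the 3 values were 19917080, 2533685 and 29947508, against at most 1 in the other TIM libraries and 35 in TI. TIM replicate 6 held the most Lin28b as well. TIM replicate 7, next in Lin28b with 239 reads, held 0 reads of Trim71. The part of these extreme values and of their correction in the Lin28b result was not tested. TIM vs TI could not be repeated within a run.

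In the 250 bases before the start site, the E-box CACGTG, the usual motif of MYC and MYCN, was searched on both strands at once, since it is its own reverse complement. RefSeq start sites (GRCm38.p6) matched 6 of 7 members. Igf2bp1 had no start site there and was not searched. CACGTG was found for Lin28b, at base -49, and for Igf2bp3, at base -23, and for 6.02% of 32851 start sites. The stretches are shown because Lin28b was higher in TIM, the tumors with the MYCN transgene, than in TI, while Igf2bp3 was not. Capitals mark CACGTG, and each sequence ends at the base before the start site.
Lin28b, chr10:45470202-45470451, minus strand: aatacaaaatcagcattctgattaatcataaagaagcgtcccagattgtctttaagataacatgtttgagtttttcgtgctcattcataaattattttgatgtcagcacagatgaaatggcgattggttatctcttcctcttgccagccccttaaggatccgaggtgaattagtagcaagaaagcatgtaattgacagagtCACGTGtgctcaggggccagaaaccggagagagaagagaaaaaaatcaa
Igf2bp3, chr6:49214955-49214997, minus strand: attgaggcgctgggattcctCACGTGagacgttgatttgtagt
A match of letters is a description and not a site of binding.

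Hmga2 (ENSMUSG00000056758, chromosome 10, 120197173 to 120313095), an architectural DNA-binding protein of embryonic and stem cells, was a gene of the adrenal glands here. It had 88, 112 and 97 corrected reads in AG and 23, 36, 18, 46 and 6 in AGM. In TI, 1 library had 6 reads and 7 had none, and all 8 TIM libraries had none. On scaled RPM, no tumor library reached the level of an adrenal gland. On the scale of reads outside the extreme genes, TI replicate 4 (0.315 RPM) lay above AGM replicate 5 (0.253 RPM). There TI vs AGM overlapped and still passed (-3.36, exact permutation test, adjusted p = 0.00466). The mean was 0.933 ± 0.123 scaled RPM in AG (SD, n = 3), 0.301 ± 0.173 in AGM (n = 5) and 0.00689 ± 0.0195 in TI (n = 8). The AG mean was at least 31.0-fold higher than TIM with a floor of 3 reads per library, and the AGM mean at least 9.99-fold higher. The log2 differences were -3.28 for TI vs AG and -3.36 for TIM vs AG (exact permutation test, adjusted p = 0.00909 for both), where 1.69% and 1.87% of the low genes fell as far or farther. They were -1.80 for TI vs AGM and -1.87 for TIM vs AGM (exact permutation test, adjusted p = 0.00233 for both). The non-overlap with AG also held among run 1 libraries for TI, and that with AGM among run 2 libraries for TIM. Hmga2 was lower in AGM than in AG by 1.49 on the log2 scale (log2 difference -1.49, exact permutation test, adjusted p = 0.0429) without overlap, and on the scale of reads outside the extreme genes the difference was -2.23 (adjusted p = 0.0214). That call was lost without any one AG library and without AGM replicate 1, 2 or 3, with adjusted p up to 0.114 in the exact permutation test. With an AG library left out, too few splits remain for this call to pass, so its loss there is not informative. The log2 difference was then -1.57, -1.40 and -1.50 without AG replicates 1, 2 and 3. Of the members with 4 let-7 matches, Hmga2 was the one without a read in any TIM library. The adrenal cortex genes, at 645 to 4846 FPKM in the glands and at most 10.1 in the tumors, moved with Hmga2 except between AG and AGM. Summed adipocyte markers (4 genes) were 29.9 to 140 FPKM in AG and 204 to 1029 in AGM, against at most 2.27 in TI and 32.2 in TIM. Summed lymphocyte markers (4 genes) were 0.986 to 2.24 FPKM in AG and 0.435 to 1.996 in AGM, against at most 0.484 in TI and 0.149 in TIM, and the lymphocyte genes Cd3e and Ms4a1 had lower means in AGM (0.0386 and 0.0651 FPKM) than in AG (0.171 and 0.106). The part of these markers in the Hmga2 result was not tested.

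Hmga1 (ENSMUSG00000046711, chromosome 17, 27775449 to 27782648, plus strand) was the member with by far the most reads, and it was higher in both kinds of tumor. It was at 2.46, 2.21 and 1.88 FPKM in AG and at 3.76, 2.82, 3.41, 3.18 and 4.23 in AGM. It was at 10.996 to 21.9 FPKM in TI (median 14.6) and at 12.5 to 24.1 in TIM (median 18.8). Every tumor library lay above every adrenal gland. The mean of 15.9 ± 4.13 FPKM in TI (SD, n = 8) was 7.26 times the 2.18 ± 0.289 in AG (n = 3), and that of 18.6 ± 4.18 in TIM was 8.53 times it. On log2(FPKM + 1), limma gave 2.37 ± 0.201 (SE) for TI vs AG (adjusted p = 1.03e-09) and 2.60 ± 0.201 for TIM vs AG (adjusted p = 1.98e-10). Against AGM, at 3.48 ± 0.541 FPKM, it gave 1.88 ± 0.169 for TI (adjusted p = 1.48e-09) and 2.11 ± 0.169 for TIM (adjusted p = 2.55e-10). With that fit, 52.4% of 10171 genes were called for TI vs AG, 51.0% for TIM vs AG, 72.4% for TI vs AGM and 65.3% for TIM vs AGM. A call alone was therefore common. By size, Hmga1 ranked 169 of 10171 from the highest for TI vs AG and 210 for TIM vs AG. As all TI libraries lay above all AG libraries, the difference also held among run 1 libraries.

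Between the tumors and between the glands, Hmga1 did not pass. TIM vs TI gave 0.23 ± 0.148 (limma, adjusted p = 0.279), where 22.9% of genes were called. AGM vs AG gave 0.49 ± 0.217 (limma, adjusted p = 0.0955), where 28.6% were called, although all AGM libraries lay above all AG libraries. The latter passed with a pseudocount of 0.1 FPKM (adjusted p = 0.0428) and in a fit of those 2 groups alone (adjusted p = 0.0063), and fell to 0.14 on the scale outside the extreme genes (adjusted p = 0.654). Summed markers of dividing cells were 5.63 to 48.2 FPKM in TI and 0.701 to 29.7 in TIM, beside 3.35 to 3.96 in AG and 1.36 to 1.92 in AGM. Their part in the Hmga1 result was not tested.

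Hmga1 has a near-identical copy in the genome. Hmga1b (ENSMUSG00000078249, chromosome 11, 120653620 to 120655245) is a single-exon gene whose transcript matched that of Hmga1 at 1561 of 1564 aligned bases, or 99.8%. How the counting treated reads that fit both was not given in the sources used here, so the split between them is uncertain. Hmga1b was at 0.702 ± 0.117 FPKM in AG (SD, n = 3), 5.89 ± 1.98 in TI and 7.30 ± 1.68 in TIM (n = 8 each), and rose as Hmga1 did (limma, 1.97 for TI vs AG, adjusted p = 2.63e-08). With both summed, every call for Hmga1 was as given.

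**Figure D4:**
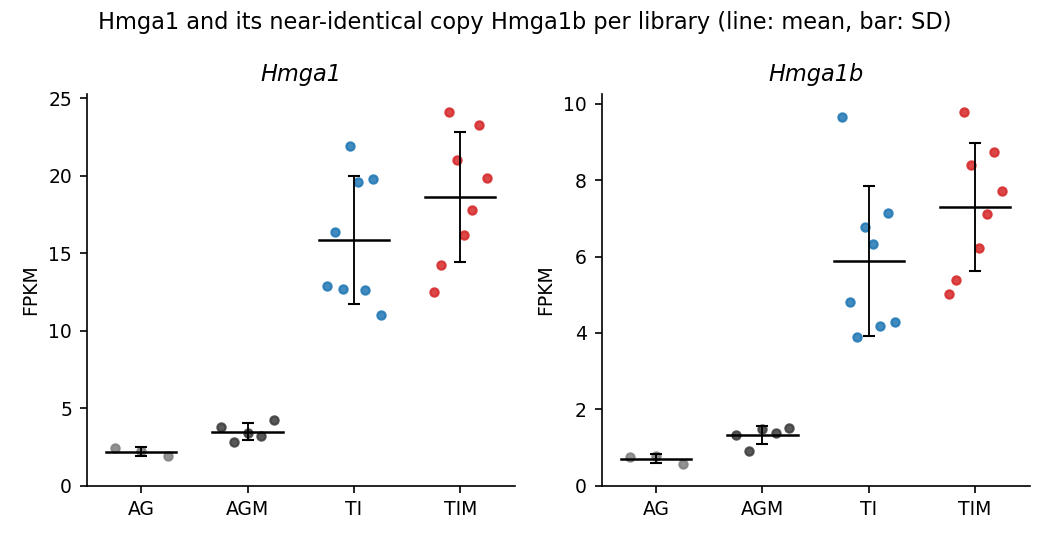
FPKM of Hmga1 (left) and of its near-identical copy Hmga1b (right) in each of 24 libraries, with the group mean (line) and SD (bar). All 16 tumor libraries lay above the 8 adrenal glands for both genes.

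The genes whose log2(FPKM + 1) followed Hmga1 most closely over the 24 libraries were Hmga1b (Pearson r = 0.973), Bex1 (r = 0.970) and Dda1 (r = 0.966). Bex1, a gene of neuroendocrine cells, was at 0.693 ± 0.162 FPKM in AG, 2.03 ± 0.545 in AGM, 30.7 ± 16.1 in TI and 32.6 ± 5.89 in TIM. Over the 16 tumors alone, the closest were Nabp2 (r = 0.797), the ribosomal gene Rps2 (r = 0.717) and Hmga1b (r = 0.713). The 24 libraries differ in tissue, and all values share library scaling, so these correlations are descriptions. Levels of the low members were too sparse for such a ranking.

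**Figure D5:**
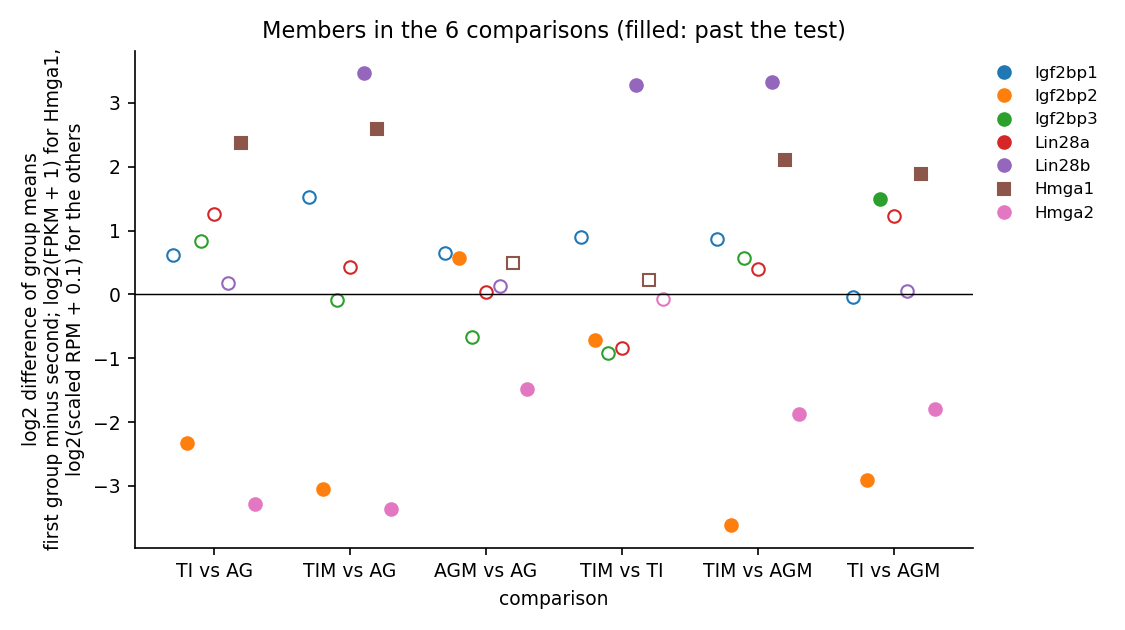
Difference of group means on the log2 scale for the 7 members in the 6 comparisons, on log2(FPKM + 1) for Hmga1 (squares) and log2(scaled RPM + 0.1) for the others (circles), filled where the test was passed. Hmga1 lay above 0 and Igf2bp2 and Hmga2 below 0 in every comparison of tumors with adrenal glands.

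Counting all 7 members, 3 were called for TI vs AG (Hmga1 higher, Igf2bp2 and Hmga2 lower), and Lin28b joined them for TIM vs AG. Of all genes tested above and below the filter, 52.4% and 40.1% were called for TI vs AG. For TIM vs AG these shares were 51.0% and 34.3%. For TI vs AGM and TIM vs AGM, 4 were called each, 2 higher and 2 lower. There the shares were 72.4% and 52.3% for TI vs AGM, and 65.3% and 42.0% for TIM vs AGM. Nothing about the family is read from these counts. The comparisons with AG share the 3 AG libraries, and those with AGM share the 5 AGM libraries. Single members lay on both sides: Hmga1 was higher in tumors where Hmga2 was lower, and in TIM Lin28b was higher where Igf2bp2 was lower.

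Genes that work with the members were described from lists, by how many passed limma among all 10171 genes. Over those genes, 2505 were higher and 2822 lower for TI vs AG (52.4% called), 2293 and 2897 for TIM vs AG (51.0%), and 1017 and 1315 for TIM vs TI (22.9%, or 749 higher and 2014 lower on the scale outside the extreme genes). The counts of the lists are to be read against these shares, and no list was tested as a set. The 9 measured let-7 axis genes included Trim71, and the others make, load or degrade microRNAs. Trim71 passed the filter only through its extreme values in TIM replicates 3, 4 and 6. Of the 9, 6 were higher and 1 lower for TI vs AG, beside 52.4% of all genes called. For TIM vs AG, 3 were higher and 1 lower, beside 51.0%. None passed for TIM vs TI, beside 22.9%, with Trim71 at 5.06 ± 1.98 (limma, adjusted p = 0.067). The median log2 difference of the 9, Trim71 among them, was 0.43 for TI vs AG and 0.29 for TIM vs AG. Over all genes the medians were -0.0021 and -0.0049. Drosha, which cuts primary microRNAs in the nucleus, was at 1.65 to 1.76 FPKM in AG and 3.87 to 5.22 in TI (log2 difference 1.05 ± 0.209, limma, adjusted p = 0.000197). In TIM it was at 1.94 to 5.85 (0.72 ± 0.209, adjusted p = 0.00598). Khsrp, which helps let-7 maturation, was higher in TI (0.63 ± 0.192, limma, adjusted p = 0.00815). Ago2, the slicing Argonaute, rose by 0.65 in TI and 0.70 in TIM (limma, adjusted p = 0.0406 and 0.0294), the latter not passing on the scale outside the extreme genes (adjusted p = 0.059). Ago1 fell by 0.51 in TI and 0.75 in TIM (limma, adjusted p = 0.0159 and 0.000844).

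Of 12 measured let-7 target genes, 7 were higher and 3 lower for TI vs AG, where 52.4% of all genes were called, with a median of 0.53. For TIM vs AG, 4 were higher and 4 lower, or 2 and 4 on the scale outside the extreme genes, with a median of 0.08, beside 51.0% of all genes called. For TIM vs TI, 5 were called and were lower in TIM, where 22.9% of all genes were called and lower calls were the more frequent. Ccnd1, cyclin D1, was at 19.3 to 23.6 FPKM in AG, 23.6 to 229 in TI and 11.7 to 116 in TIM. It rose for TI vs AG (log2 difference 1.97 ± 0.578, limma, adjusted p = 0.00656) and not for TIM vs AG (0.71, adjusted p = 0.319). Ccnd2, cyclin D2, fell from 10.1 to 11.8 FPKM in AG to at most 0.416 in TI and 0.608 in TIM (limma, adjusted p = 7.14e-15 and 5.53e-15). E2f6, a repressor of the E2F family, was higher by 0.56 in TI (adjusted p = 0.0143) and at -0.0070 in TIM (adjusted p = 0.988). The mouse gene Mycn, which is also on the IGF2BP1 target list, was at 1.57 to 15.6 FPKM in TI and 1.199 to 4.38 in TIM, beside 0.559 to 0.823 in AG and 0.559 to 1.19 in AGM. It rose by 2.30 in TI and by 1.153 in TIM (limma, adjusted p = 5.40e-05 and 0.0214), and the MYCN transgene had no row of its own.

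Of 12 genes for proteins found with IGF2BP1 on mRNAs, 4 were higher for TI vs AG, where 52.4% of all genes were called, and 3 were higher and 3 lower for TIM vs AG, where 51.0% were. For TIM vs TI, 4 were called and were lower in TIM, beside 22.9% of all genes. The neuronal RNA-binding genes Elavl4 and Elavl2 led. Elavl4 was at 0.0600 to 0.107 FPKM in AG, 2.65 to 10.3 in TI and 1.56 to 4.91 in TIM (log2 differences 2.49 and 1.91, limma, adjusted p = 4.20e-08 and 2.25e-06). Elavl2 rose by 2.40 and 1.39 (limma, adjusted p = 0.000742 and 0.0364). Elavl1, their widely expressed relative, rose by 0.51 in TI (adjusted p = 0.00770) and was at 0.18 in TIM (adjusted p = 0.340). Ybx1, a cold-shock domain protein of mRNPs, fell by 0.69 in TIM (limma, adjusted p = 0.0470), and so did Fmr1 by 0.48 (adjusted p = 0.00130), while in TI they were at -0.25 and -0.15 (adjusted p = 0.494 and 0.290).

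Of 11 measured IGF2BP1 target mRNAs, 5 were higher and 2 lower for TI vs AG, where 52.4% of all genes were called. For TIM vs AG, where 51.0% were called, 4 were higher and 1 lower, or 4 and 2 on the scale outside the extreme genes. For TIM vs TI, 4 were called and were lower in TIM, beside 22.9% of all genes. Birc5, survivin, was at 0.277 to 0.405 FPKM in AG, 2.14 to 14.5 in TI and 0.0937 to 5.09 in TIM, and rose by 2.45 and 1.23 (limma, adjusted p = 0.000148 and 0.0340). Aurka, a mitotic kinase, rose by 1.75 in TI (limma, adjusted p = 0.00190) and was at 1.02 in TIM (adjusted p = 0.0567). Myc fell from 4.32 to 4.58 FPKM in AG to 0.400 to 1.74 in TI and 0.150 to 1.13 in TIM (log2 differences -1.53 and -1.95, limma, adjusted p = 6.71e-07 and 1.55e-08). The lists of let-7 and IGF2BP1 targets overlap, with Mycn on both. The summed markers of dividing cells given above were, as Birc5 and Aurka were, highest in TI libraries, and their part was not tested.

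Of 11 other HMG genes, 3 were higher and 2 lower for TI vs AG (3 and 1 on the scale outside the extreme genes), and 2 were higher and 2 lower for TIM vs AG, beside 52.4% and 51.0% of all genes called. For TIM vs TI, 6 were called and were lower in TIM, where 22.9% of all genes were called. Hmgb2, a chromatin protein of dividing cells, was at 1.02 to 1.39 FPKM in AG, 12.6 to 49.3 in TI and 0.381 to 19.1 in TIM, and rose by 3.34 and 1.93 (limma, adjusted p = 3.01e-05 and 0.00633). Tox rose by 1.28 and 1.48 (limma, adjusted p = 8.56e-06 and 1.13e-06), and Hmg20b, a LSD1 complex subunit, fell by 0.73 and 1.08 (adjusted p = 0.000560 and 6.16e-06). Hmgn2, which binds nucleosomes, rose by 1.43 in TI (limma, adjusted p = 0.0157) and was at 0.33 in TIM (adjusted p = 0.595). Of 6 measured fetal genes, 2 were higher and 1 lower in each kind of tumor against AG, near the 52.4% and 51.0% of all genes called. The imprinted genes Peg3 (1.21 and 1.55, limma, adjusted p = 0.00549 and 0.000726) and Plagl1 (1.39 and 0.96, adjusted p = 7.01e-05 and 0.00288) rose, and Gpc3, a glypican of the fetal liver, fell (-1.66 and -0.71, adjusted p = 5.48e-05 and 0.0490). For TIM vs TI, 1 fetal gene was called higher, or 1 higher and 1 lower on the scale outside the extreme genes. Afp and Sall4, fetal markers of liver and germ cells, stayed below the filter.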

How the data were processed

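Poly(A)-enriched, strand-specific libraries were sequenced. Per the labels, reads were processed with cutadapt 2.8, HISAT2 2.1.0 (mm39), SAMtools 1.10, featureCounts 2.0.0 and edgeR 3.40. The authors corrected the reads for a batch effect with ComBat-seq, normalized them by the trimmed mean of M-values and deposited FPKM. The annotation used for counting was not given in the sources used here. The deposited table also held 9 columns of the authors' own comparisons (log2 fold changes, p-values and FDR), which were not used. Columns named a group and no sample, so replicate numbers follow column order, and run and zygosity could not be assigned to libraries. Recovered reads outside 126 extreme genes were 12334076 to 23683176 per library. The counts carry the correction, so intervals cover counting error only.

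Genes that reached 1 FPKM in 3 libraries or more were tested with limma 3.58.1 in R 4.3.3 on log2(FPKM + 1), with 4 groups, an intensity trend and Benjamini-Hochberg adjustment over 10171 genes (threshold 0.05). A fold change on this scale understates the change of low genes. Lower members were tested by an exact permutation test (numpy 2.4.6) on log2(scaled RPM + 0.1), where 0.1 equals 7.47 to 13.4 reads. Because the file held FPKM, no count model was used. Both procedures were tested on simulated data, where limma recovered 92% of 200 genes changed by 2 on the log2 scale among 10171 for TI vs AG. Alternatives covered pseudocounts, filters, scaling, fits of 2 groups, limma-voom on recovered reads, a rank sum and leaving out each library. Sequences were read from RefSeq (GRCm38.p6) and GENCODE (GRCm39) tables, and transcripts aligned with Biopython 1.88. Companion genes named are the up to 4 per list with the largest called change against AG and up to 2 that passed for TIM vs TI and whose call against AG differs between tumors. Members and lists were chosen with earlier results of these data known. Some genes that the rule names are not reported here.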

Additional observations from a re-analysis of the deposited data

Results flagged for a closer look

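In 20 groups of 5 or 8 libraries with any spread, 7 had a highest library set apart from the others by more than Dixon's 95% limit. That limit assumes normal values. Where all other libraries are at 0, as for Lin28a in AGM and Hmga2 in TI, any read is flagged. The number flagged is therefore not set against a chance rate. All are values of sparse members. The highest TIM library had 0.209 scaled RPM of Igf2bp2 (replicate 5) and 0.322 of Igf2bp3 (replicate 6). The highest AGM library had 0.0623 scaled RPM of Igf2bp3, which is 5 corrected reads, and 0.0116 of Lin28a, which is 1 read. TI replicate 5 had 1.27 scaled RPM of Lin28a. TIM replicate 6 had 5.19 scaled RPM of Lin28b, against 2.09 in the next library. TI replicate 4 had 0.0551 scaled RPM of Hmga2, with the other TI libraries at 0. No cause was tested.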

How the results depend on the processing

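No paired analysis was possible because the columns carry no replicate number of the labels. A fit with sequencing run as a covariate was not run for the same reason. Over settings that kept every library, 271 of 294 values for single members kept their direction and their side of the threshold, 10 lost the call, 8 gained it and 5 changed sign. With only the TIM libraries without Cpa1, 16 of 21 were kept, 4 lost the call and 1 changed sign. With 1 library left out, 969 of 1008 were kept. The changes of sign were in differences that never passed: Igf2bp1 TI vs AGM at 0.29 on the scale outside the extreme genes, Igf2bp3 TIM vs AG at 0.0014 without the log scale and 0.17 with only the TIM libraries without Cpa1, and Lin28b TI vs AGM at -0.65 mean ranks and at -0.0044 with a pseudocount of 0.01, by permutation and by limma. Leaving out 1 library gave -0.24 to 0.11 for Igf2bp1 TI vs AGM, -0.34 to 0.085 for Igf2bp3 TIM vs AG and -0.052 to 0.12 for Lin28b TI vs AGM. The number of members called for AGM vs AG, 2 in the report, was 1 on the scale outside the extreme genes and 1 by limma with a pseudocount of 0.01, and 0 to 2 with 1 library left out (0 without AG replicate 2 or 3). With any AG library left out, Hmga2 could not pass for AGM vs AG, as given above. For TIM vs TI, 2 in the report, it was 0 with only the TIM libraries without Cpa1, where 4 TIM libraries remain, and 2 to 4 with 1 library left out (4 without TIM replicate 6). Fits of 2 groups called 2 let-7 axis genes and 3 mRNP partners for TIM vs AG, against 4 and 6. Over all genes, the scale outside the extreme genes called 891 higher and 3574 lower for AGM vs AG, against 1488 and 1420. It called 749 and 2014 for TIM vs TI, against 1017 and 1315, then 4270 and 2582 for TIM vs AGM, against 3241 and 3398, and 4928 and 2664 for TI vs AGM, against 3683 and 3678. Lin28a by limma with a pseudocount of 0.01 passed for TI vs AGM (2.798, adjusted p = 0.0227). The cause of these changes was not tested. For 6 members, few reads limit what can be seen, and a value of 0 need not mean absence. The pseudocounts of 0.01, the sum with Hmga1b and the choice by Cpa1 were added after the data were seen.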
